A study of Mus musculus with 9 samples.

Results

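The genes described here carry the insulin signal into the cell: the receptors Insr and Igf1r, the receptor substrates Irs1 and Irs2, the PI3-kinase subunits Pik3ca, Pik3cb and Pik3r1, the kinases Akt1 and Akt2, and Tbc1d4, which encodes AS160. They were chosen by symbol as parts of this pathway and make up 10 of the 28965 genes in the deposited table. The cells were 3T3-L1, a mouse adipocyte precursor line labelled WT, which sat confluent for 2 days before 24 h of adipogenic cocktail. The cocktail combined 0.1 µg/mL insulin, 30 µg/mL isobutylmethylxanthine and 0.1 µg/mL dexamethasone. Every group received this cocktail, insulin included, so no library shows the pathway without its ligand. The OA_T0 group also received 100 µM oleic acid on albumin and 5 µM T0901317, which activates the liver X receptors (LXR), the OA group the oleic acid alone, and the MDI group the albumin vehicle. There were 3 libraries in each group, named below by group and replicate number (OA 1), and no group with T0901317 alone. The labels do not say whether the libraries of a group came from separate cultures, so the spread between them may be technical.

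Insulin and IGF1 bind related receptor tyrosine kinases, which phosphorylate the IRS proteins. These recruit PI3-kinase, a dimer of a regulatory and a catalytic subunit, whose lipid product brings AKT to the membrane, where it is activated. In fat cells AKT2 phosphorylates AS160 and so releases vesicles with the glucose transporter GLUT4 to the surface, while in adipocyte precursors, which hold more IGF1 receptor than insulin receptor, insulin at high doses can also act through the IGF1 receptor.

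Depth was estimated from the worth of 1 fragment in each library, at 17.98 to 29.3 M fragments in OA_T0, 21.4 to 29.3 M in OA and 25.6 to 59.9 M in MDI. The floor of 3 fragments lay between 1.35 and 4.62 normalised counts, far under every member, and covers counting error only. The share of 1 ribosomal RNA gene was 3.06% in OA_T0 3 and 0.649% in OA 1, against 4.40% to 5.96% in the other libraries. Summed markers of precursors and fibroblasts lay at 173558 to 200125 in OA_T0, 204193 to 223084 in OA and 192598 to 204247 in MDI. The collagen genes Col3a1 and Col1a1 were the highest of these 8 markers, and single markers ran different ways. Dlk1 averaged 43502 in OA_T0, 35777 in OA and 37585 in MDI, and Pdgfra 11816, 18401 and 13276 in that order. Of 8 adipocyte markers, 3 averaged below 10 normalised counts over the 9 libraries, among them Adipoq and Plin1. The other markers averaged 7811 (Lpl), 1031 (Pparg), 1020 (Fabp4), 422 (Cebpa) and 123 (Cd36). Endothelial markers summed to at most 20.03 and leukocyte markers to at most 79.8 normalised counts, with Adgre1, Myog and Ckm at 0 in all 9 libraries.

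The members differed widely in level. Per kb of the longest coding transcript, Akt1, the AKT isoform found in most tissues, was highest, at 2621 to 3052 normalised counts per kb over the 9 libraries. Normalised counts are taken here to be the authors' counts divided by a factor per library. Akt2, the isoform tied to glucose uptake, followed at 561 to 672 per kb and overlapped with Pik3r1, the regulatory PI3-kinase subunit p85 alpha, at 477 to 602 per kb. Igf1r (244 to 340.3 per kb), the catalytic subunit gene Pik3ca (235 to 281 per kb) and Irs2 (210.3 to 293 per kb) overlapped with one another. Insr lay at 149 to 176 per kb and Tbc1d4 at 115 to 124 per kb, each apart from its neighbours. Irs1 (63.2 to 109 per kb) and Pik3cb, the other catalytic subunit gene (46.2 to 67.4 per kb), were lowest and overlapped. The transcript in use was not determined, so these levels per length are approximate.

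**Figure D1:**
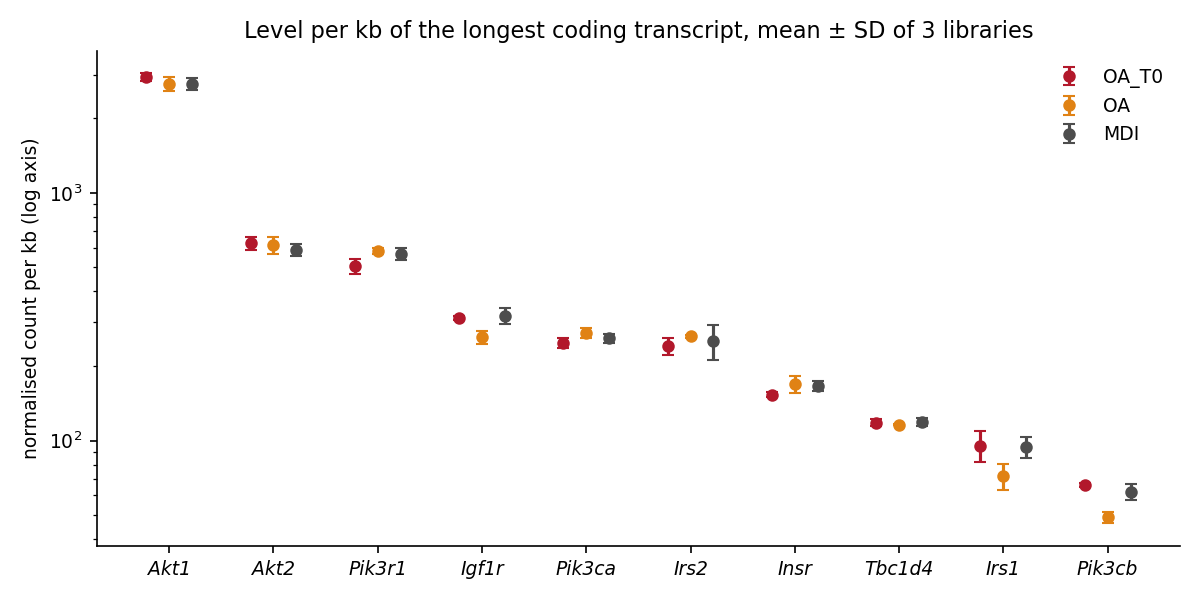
Normalised counts per kb of the longest coding transcript on a log axis, for the 10 members in OA_T0, OA and MDI (mean ± SD of 3 libraries each). Akt1 stood highest, at 2621 to 3052 per kb over all libraries, and Pik3cb lowest, at 46.2 to 67.4 per kb.

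The comparison of OA_T0 with OA shows what the LXR agonist adds to oleic acid, and that of OA with MDI what oleic acid adds to the cocktail. Igf1r, Irs1 and Pik3cb were higher in OA_T0 than in OA, and the same 3 genes were lower in OA than in MDI. All 10 members passed the filter on low values. A call means an adjusted p below 0.05 in limma, with the Benjamini-Hochberg method over all tested genes, on log2(value + 1). In OA_T0 against OA, 3 of 10 members rose (8.27% of the 15002 tested genes did) and 1, Pik3r1, fell (6.84% did), so 4 were called against 15.1% of all genes. In OA against MDI, 0 members rose (3.43% of tested genes did) and 3 fell (3.36% did), so 3 were called against 6.79% of all genes. At an unadjusted p below 0.05 the members numbered 3 higher and 2 lower in OA_T0 vs OA (15.6% and 14.3% of tested genes) and 0 higher and 3 lower in OA vs MDI (11.1% and 10.1%). In OA_T0 against MDI, limma called 0 higher (background 1.25%) and 0 lower (background 1.36%, and 2.61% for either direction), with 0 higher and 1 lower, Pik3r1, at an unadjusted p below 0.05 (10.6% and 7.87% of tested genes, so 1 of 10 is near the background). The median log2 fold change of the members was 0.03, 0.01 and -0.02 in OA_T0 vs OA, OA vs MDI and OA_T0 vs MDI, against -0.0023, 0.01 and 0.02 over all tested genes. The OA libraries enter both of the first comparisons, so a change in OA alone appears in each with the opposite sign.

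**Figure D2:**
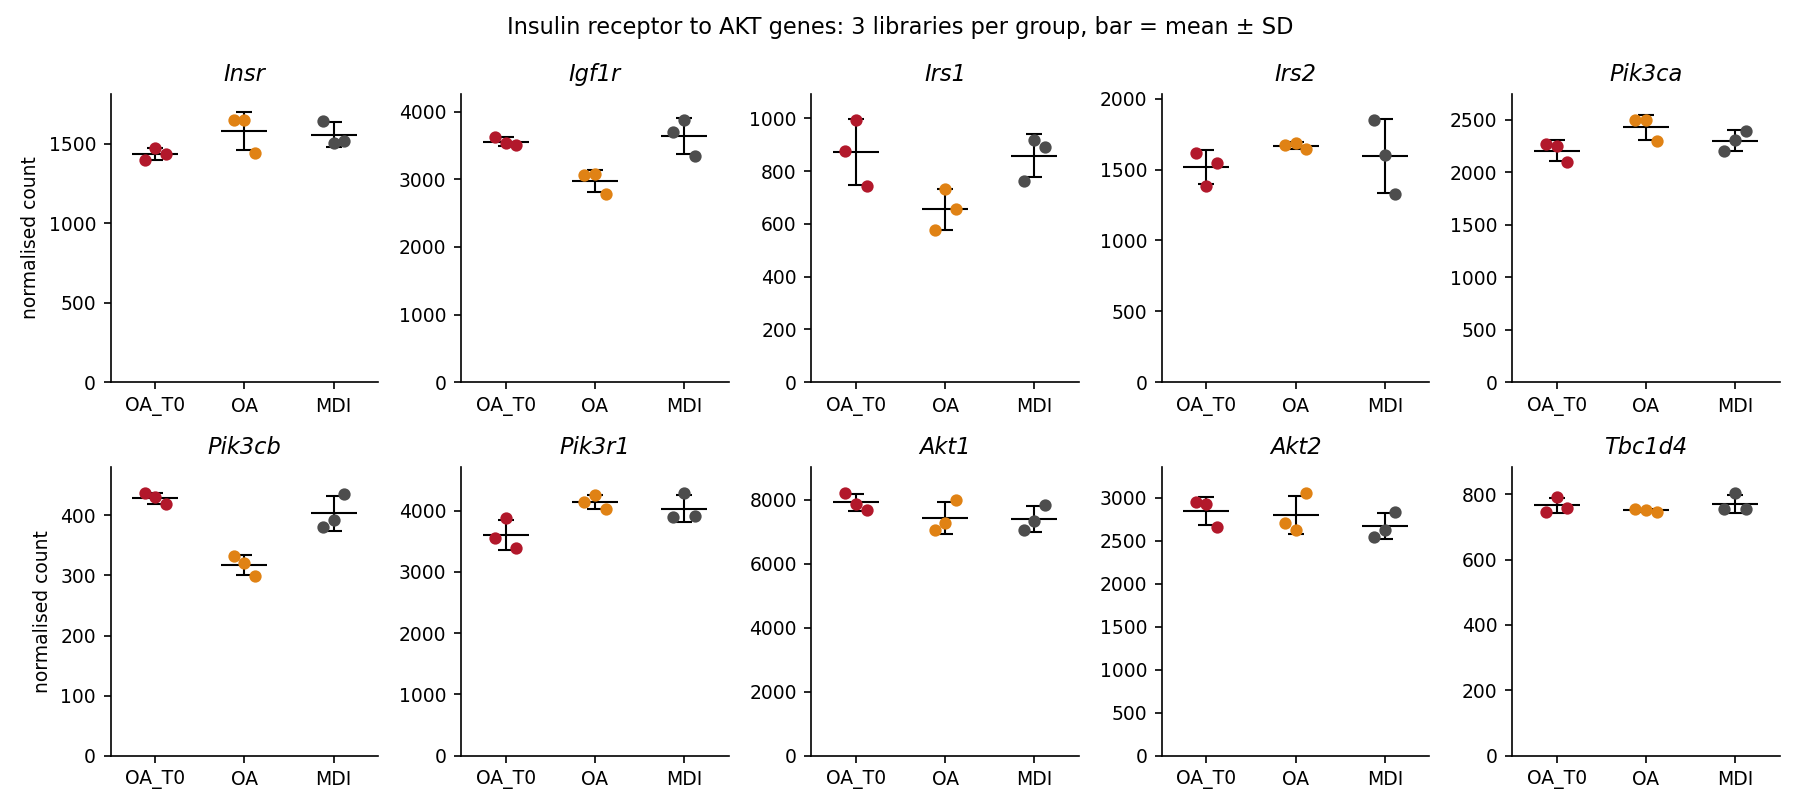
Normalised counts of each member in the 3 OA_T0, 3 OA and 3 MDI libraries (points), with mean ± SD (bars). For Igf1r, Irs1 and Pik3cb the 3 OA libraries lie below all 6 others.

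Igf1r is the receptor for IGF1 and also binds insulin at high concentrations. It measured 3631, 3536 and 3502 normalised counts in OA_T0, 3070.2, 3081 and 2784 in OA, and 3697, 3883 and 3353 in MDI. All 3 OA libraries lay below every other library. It rose in OA_T0 vs OA (log2 fold change 0.26, SE 0.06, adjusted p = 0.0139) and fell in OA vs MDI (-0.29, SE 0.06, adjusted p = 0.0133). The rise was not called without OA_T0 1 (adjusted p = 0.0733), nor the fall without MDI 1 (0.0511) or MDI 2 (0.0937), nor with genes of low values kept in the test (0.0545), while the log2 fold change was 0.24 for the rise and -0.29 to -0.24 for the fall. Without both OA 1 and OA_T0 3, the libraries low in ribosomal RNA, the rise was 0.29 (0.0518). Between OA_T0 and MDI it differed by -0.03 (95% interval -0.17 to 0.10, adjusted p = 0.820).

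Insr, the insulin receptor itself, measured 1398, 1471 and 1431 normalised counts in OA_T0, 1649.8, 1646 and 1443 in OA, and 1644, 1505 and 1519 in MDI. The OA_T0 libraries overlapped with the lowest OA library and lay below all MDI libraries. In OA_T0 vs OA the log2 fold change was -0.14 (95% interval -0.28 to 0.01, adjusted p = 0.186), and it was called lower only without OA 3 (adjusted p = 0.0457). In OA vs MDI the difference was 0.02 (95% interval -0.12 to 0.16), and against MDI the OA_T0 value was -0.12 (95% interval -0.26 to 0.03).

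Irs1, a main substrate of both receptors, measured 877, 995 and 744 normalised counts in OA_T0, 578, 733 and 655 in OA, and 764, 919 and 893 in MDI. The highest OA library lay just under the lowest OA_T0 library. It rose in OA_T0 vs OA (log2 fold change 0.41, SE 0.11, adjusted p = 0.0227) and fell in OA vs MDI (-0.39, SE 0.11, adjusted p = 0.0463). The rise was not called without OA 1 (adjusted p = 0.117), OA_T0 1 (0.0855) or OA_T0 2 (0.0755), and with genes of low values kept in the test (0.0896), with log2 fold changes of 0.31 to 0.41 in these fits. The fall was not called without MDI 2 (0.203), MDI 3 (0.0941), OA 1 (0.193), OA 3 (0.0986) or OA_T0 1 (0.0705). Nor was it called with genes of low values kept (0.167) or without both libraries low in ribosomal RNA (0.0945), and in all these fits the log2 fold change lay between -0.39 and -0.30. In the GENCODE M21 annotation 30.9% of the exonic bases of Irs1 lie opposite those of Gm9747, which averaged 73.4 normalised counts. By group Gm9747 averaged 79.3 ± 5.15 in OA_T0, 61.4 ± 26.5 in OA and 79.5 ± 27.6 in MDI. No source used here says whether counting used the strand, and the part of shared reads in the Irs1 values was not tested.

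Irs2, a substrate whose transcription is known to respond to cAMP and to FOXO1, was not called in any comparison. It measured 1620.3, 1386 and 1545 normalised counts in OA_T0, 1673, 1689 and 1643 in OA, and 1852, 1601 and 1329 in MDI. The MDI libraries spread the widest (SD 261) and spanned both other groups. The differences were -0.14 in OA_T0 vs OA (95% interval -0.34 to 0.06), 0.08 in OA vs MDI (-0.13 to 0.28) and -0.06 in OA_T0 vs MDI (-0.26 to 0.14).

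Pik3cb encodes the catalytic subunit p110 beta. It measured 437, 431 and 419 normalised counts in OA_T0, 332, 320.4 and 299 in OA, and 381, 392 and 436 in MDI. The OA libraries stood clear of both other groups, which overlapped. Pik3cb rose in OA_T0 vs OA (log2 fold change 0.43, SE 0.09, adjusted p = 0.00432), a call that held without each single library (adjusted p at most 0.0280) and under every alternative tried. It fell in OA vs MDI (-0.34, SE 0.09, adjusted p = 0.0306). That fall was not called without MDI 1 (0.0546), 2 (0.0937) or 3 (0.0929), without OA 1 (0.0608), 2 (0.0678) or 3 (0.0905), with genes of low values kept (0.0522) and without both libraries low in ribosomal RNA (0.0551). In these fits the log2 fold change lay between -0.38 and -0.29, and it was -0.38 without both of those libraries. Between OA_T0 and MDI the difference was 0.09 (95% interval -0.10 to 0.28).

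Pik3ca encodes p110 alpha, the main catalytic subunit behind insulin receptors. It measured 2273, 2256 and 2095 normalised counts in OA_T0, 2499.9, 2502 and 2295 in OA, and 2204, 2312 and 2396 in MDI. The OA_T0 libraries lay just below the lowest OA library, but the log2 fold change of -0.14 was not called (95% interval -0.27 to -0.01, adjusted p = 0.139), and it stood at 0.012 once trends on GC content and transcript length were removed. In OA vs MDI the difference was 0.08 (95% interval -0.05 to 0.21), and between OA_T0 and MDI it was -0.06 (95% interval -0.19 to 0.07).

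Pik3r1 encodes the regulatory subunits p85 alpha, p55 alpha and p50 alpha, which stabilise and restrain p110. It measured 3555, 3878 and 3391 normalised counts in OA_T0, 4148, 4260.0 and 4021 in OA, and 3897, 4284 and 3906 in MDI. The OA_T0 libraries lay below all others, by a small margin. It fell in OA_T0 vs OA (log2 fold change -0.20, SE 0.06, adjusted p = 0.0407). This call was lost without OA 1 (0.121), OA 2 (0.132), OA_T0 1 (0.146) or OA_T0 3 (0.147), without both libraries low in ribosomal RNA (0.294), with genes of low values kept (0.0947), and after removal of GC and length trends (0.0861), with log2 fold changes between -0.20 and -0.12. Against MDI the OA_T0 difference was -0.16 (95% interval -0.29 to -0.03, adjusted p = 0.191), and the OA difference from MDI was 0.04 (95% interval -0.09 to 0.17).

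Akt1 measured 8210.0, 7871 and 7682 normalised counts in OA_T0, 7051, 7265 and 7999 in OA, and 7057, 7335 and 7848 in MDI. Akt2 measured 2956, 2926 and 2660.3 in OA_T0, 2713, 2631 and 3054 in OA, and 2547, 2620.4 and 2837 in MDI. Groups overlapped for both genes in every comparison, and all their 95% intervals lay within -0.13 and 0.24 on the log2 scale. Tbc1d4 had the smallest spread, at 746, 792 and 758 in OA_T0, 755, 751 and 747 in OA, and 753, 803 and 754 in MDI, with differences of 0.03, -0.04 and -0.01 in OA_T0 vs OA, OA vs MDI and OA_T0 vs MDI and intervals between -0.18 and 0.17.

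**Figure D3:**
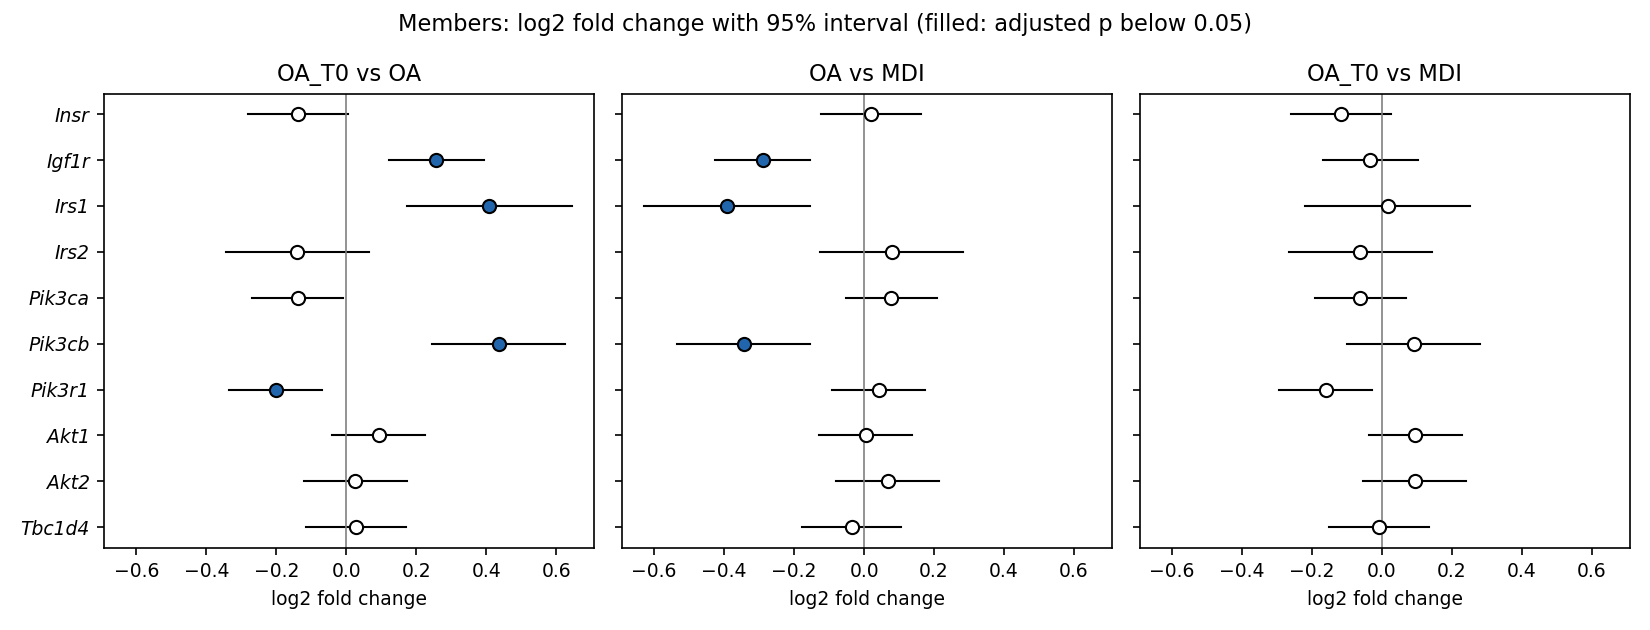
Log2 fold change of each member with its 95% interval in OA_T0 vs OA, OA vs MDI and OA_T0 vs MDI, from limma on 9 libraries; filled points passed at an adjusted p below 0.05. Igf1r, Irs1 and Pik3cb lie at 0.26 to 0.43 in OA_T0 vs OA and at -0.39 to -0.29 in OA vs MDI, and all 10 points are open in OA_T0 vs MDI.

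Counted without a test, 6 of 10 members did not overlap between OA_T0 and OA (32.1% of tested genes), 3 of them higher (17.1%) and 3 lower (15%), the lower being Irs2, Pik3ca and Pik3r1. Between OA and MDI 3 did not overlap (26.1%), 0 higher (13.4%) and 3 lower in OA (12.6%). Between OA_T0 and MDI 2 did not (23.5%), 0 higher (13.3%) and 2 lower in OA_T0, Insr and Pik3r1 (10.2%). Across the 9 libraries log values of Igf1r and Pik3cb correlated at 0.79, Irs1 and Pik3cb at 0.78 and Igf1r and Irs1 at 0.71. Akt1 and Akt2 correlated at 0.85 and Insr and Akt1 at -0.89. These correlations share libraries and groups and are given as a description.

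The upstream sequence of the 3 genes that were low in OA is shown because they moved together. It covers the 250 bases before the RefSeq start on build GRCm38.p6, 5′ to 3′ on the gene's strand, at chr7:67952007-67952256 (plus strand) for Igf1r, chr1:82291440-82291689 (minus strand) for Irs1 and chr9:99140212-99140461 (minus strand) for Pik3cb. Capitals mark matches, on either strand, to the motifs searched; a match is not evidence of binding.
Igf1r: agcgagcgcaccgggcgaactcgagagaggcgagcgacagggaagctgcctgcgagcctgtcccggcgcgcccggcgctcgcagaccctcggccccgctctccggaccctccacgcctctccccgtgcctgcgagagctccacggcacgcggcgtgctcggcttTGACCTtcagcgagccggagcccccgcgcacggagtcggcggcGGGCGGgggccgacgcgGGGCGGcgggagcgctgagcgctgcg
Irs1: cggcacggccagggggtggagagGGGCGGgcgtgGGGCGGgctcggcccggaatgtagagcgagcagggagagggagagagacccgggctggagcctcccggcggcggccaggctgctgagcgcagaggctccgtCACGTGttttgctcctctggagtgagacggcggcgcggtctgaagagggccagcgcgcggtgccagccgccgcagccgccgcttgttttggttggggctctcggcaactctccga
Pik3cb: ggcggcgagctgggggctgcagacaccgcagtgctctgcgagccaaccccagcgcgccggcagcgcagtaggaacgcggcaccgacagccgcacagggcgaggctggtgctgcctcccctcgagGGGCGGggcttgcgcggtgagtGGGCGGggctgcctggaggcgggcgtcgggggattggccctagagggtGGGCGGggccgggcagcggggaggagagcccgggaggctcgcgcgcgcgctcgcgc
The capitals are GC boxes (GGGCGG, with 2 in Igf1r, 2 in Irs1 and 3 in Pik3cb, and present in 32.7% of all 32851 RefSeq start windows), an E-box (CACGTG) in Irs1 (6.02% of windows), and the nuclear receptor hexamer AGGTCA, read on the other strand, in Igf1r (14.0% of windows). None of these 3 windows held the DR4 element of LXR, which is a pair of such hexamers with a spacer (0.0152% of windows), a FOXO site (GTAAACA, 3.17%), a sterol regulatory element (TCACNCCAC, 1.05%), a cAMP response element (TGACGTCA, 1.55%) or an amino acid response element (TGATGCAA, 0.791%). The hexamer is part of the DR4 element. The windows were rich in G and C, at 77.6% in Igf1r, 72.4% in Irs1 and 78% in Pik3cb. This was not particular to them, with 78.4% in a window of Akt1, 76.4% in one of Pik3r1 and 72.8% in that of Irs2. The remaining member windows lay between 42.4% (the other of Pik3r1) and 61.6% (Pik3ca). Over all members, 9 of 10 matched the RefSeq table, at 14 starts, with Insr the exception. GC boxes were not particular to the 3 genes shown. They also lay in windows of Irs2, Pik3ca, Pik3r1, Akt1, Akt2 and Tbc1d4. An E-box also lay in the window of Irs2, and the hexamer and a FOXO site in a window of Akt1.

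Ratios within a library do not depend on a scaling by 1 factor per library. The ratio of Insr to Igf1r was 0.385, 0.416 and 0.409 in OA_T0, 0.537, 0.534 and 0.518 in OA, and 0.445, 0.388 and 0.453 in MDI, so OA stood above both other groups without overlap. The log2 ratio differed by -0.40 in OA_T0 vs OA (exact two-sided permutation p = 0.1, adjusted p = 0.24) and by 0.31 in OA vs MDI (exact p = 0.1, adjusted p = 0.24). With 3 libraries against 3 the exact test cannot go below 0.1, so no ratio could pass. Irs2 to Irs1 was 1.85, 1.39 and 2.08 in OA_T0, 2.90, 2.30 and 2.51 in OA, and 2.42, 1.74 and 1.49 in MDI, with log2 differences of -0.55 in OA_T0 vs OA (exact p = 0.1, no overlap) and 0.47 in OA vs MDI (exact p = 0.2). The MDI libraries overlapped with OA. Akt2 to Akt1 averaged 0.359 ± 0.013 in OA_T0, 0.376 ± 0.012 in OA and 0.36 ± 0.002 in MDI (SD, n = 3 each). Pik3r1 to the sum of Pik3ca and Pik3cb averaged 1.37 ± 0.07 in OA_T0, 1.51 ± 0.04 in OA and 1.49 ± 0.10 in MDI. The ratio of Pik3cb to Pik3ca, chosen after its values were seen and given as a description, was 0.192, 0.191 and 0.1999 in OA_T0, 0.133, 0.128 and 0.130 in OA, and 0.173, 0.169 and 0.182 in MDI, 3 ranges that did not overlap.

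**Figure D4:**
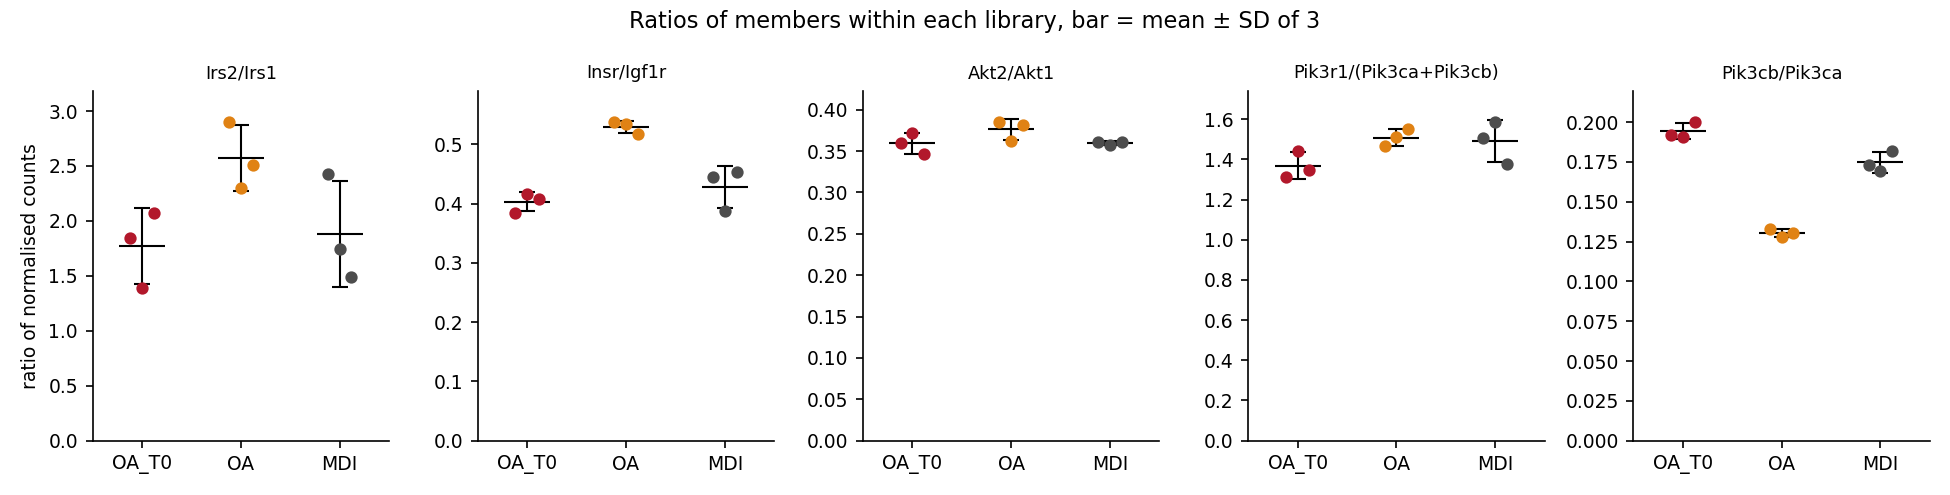
Ratios of normalised counts within each library, for Irs2 to Irs1, Insr to Igf1r, Akt2 to Akt1, Pik3r1 to the sum of Pik3ca and Pik3cb, and Pik3cb to Pik3ca (points are libraries of OA_T0, OA and MDI, bars mean ± SD). Insr to Igf1r is at 0.518 to 0.537 in OA and at 0.385 to 0.453 in the other libraries, and Pik3cb to Pik3ca is lowest in OA.

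Immediate early genes moved with Igf1r, Irs1 and Pik3cb, and their part in the result was not tested. Of 8 immediate early genes, which respond to handling and growth factors, 5 rose in OA_T0 vs OA (8.27% of tested genes did) and 5 fell in OA vs MDI (3.36% did). Their summed level was 12352 to 13208 normalised counts in OA_T0, 9632 to 10208 in OA and 11807 to 12797 in MDI. The other lists had another pattern. Of 5 tested adipocyte markers, 1 rose and 2 fell in OA_T0 vs OA and 3 rose and 0 fell in OA vs MDI, with summed levels over all 8 markers of 10604 to 11436 in OA_T0, 12586 to 13697 in OA and 6898 to 7555 in MDI. Most of this sum was Lpl, which averaged 8651 in OA_T0, 9358 in OA and 5424 in MDI. Single markers differed. In the same order Fabp4 averaged 661, 2024 and 374, Cd36 27.7, 321 and 20.3, Pparg 1185, 964 and 945, and Cebpa 429, 455 and 383. Of 8 precursor markers, 1 rose and 2 fell in OA_T0 vs OA and 1 rose and 0 fell in OA vs MDI. Of all tested genes, 8.27% rose and 6.84% fell in OA_T0 vs OA, and 3.43% rose and 3.36% fell in OA vs MDI. In these bulk samples fewer cells of a type and less RNA per cell cannot be told apart.

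The genes most like 2 members over the 9 libraries were listed by the correlation of log values. Being the highest among all tested genes, these correlations are large by selection and are given as a description. For Pik3cb, the member with the smallest adjusted p in OA_T0 vs OA, they were the keratin gene Krt7 (0.98), the myosin light chain gene Myl9 (0.98) and the glutamate transporter gene Slc1a3 (0.97). Myl9 averaged 178 ± 9.54 normalised counts in OA_T0, 67.6 ± 16.9 in OA and 141 ± 21.3 in MDI. For Igf1r, the member with the smallest adjusted p in OA vs MDI, they were the noncoding host gene Snhg1 (0.96), the kinase gene Hipk1 (0.96) and Ppp1r15b (0.96), whose product guides dephosphorylation of eIF2 alpha. Hipk1 averaged 3835 ± 53.8 in OA_T0, 3216 ± 145 in OA and 3771 ± 253 in MDI. Ppp1r15b was not called by limma in OA_T0 vs OA (log2 fold change 0.12, adjusted p = 0.137) or in OA vs MDI (-0.10, adjusted p = 0.275).

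The rest of the pathway was described with 8 lists of 100 symbols, of which 98 matched the table and 90 were tested. In OA_T0 vs OA 11 of 90 rose and 14 fell, or 12.2% and 15.6% (8.27% and 6.84% of all tested genes). In OA vs MDI 6 rose and 4 fell, or 6.67% and 4.44% (3.43% and 3.36% of all). In OA_T0 vs MDI 1 rose and 2 fell, or 1.11% and 2.22% (1.25% and 1.36% of all), and these shares are the background for the counts of each list. Their median log2 fold changes were -0.04, 0.02 and -0.01 in that order. In OA_T0 vs OA the count of rises moved to 4 without OA 1, 6 without OA 2, 5 without OA_T0 1, 6 without OA_T0 2 and 7 without OA_T0 3, and that of falls to 9 without OA 1 or OA 2 and 8 without OA_T0 1 or OA_T0 3. Calls over all genes also moved in these fits, to 580 to 1443 higher and 474 to 1239 lower with any 1 library left out, against 1240 and 1026 with all. In OA vs MDI the rises numbered 2 without MDI 1 and 3 without MDI 2, and the falls 2 without MDI 1 (over all genes 214 to 660 higher and 155 to 642 lower with any 1 library left out, against 514 and 504). In OA_T0 vs MDI the rises numbered 2 without OA_T0 2 and 0 without OA 1, MDI 1, 2 or 3, or OA_T0 1 or 3. The falls there numbered 4 without OA_T0 2 and 1 without OA 1, MDI 1, 2 or 3, or OA_T0 1 or 3.

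**Figure D5:**
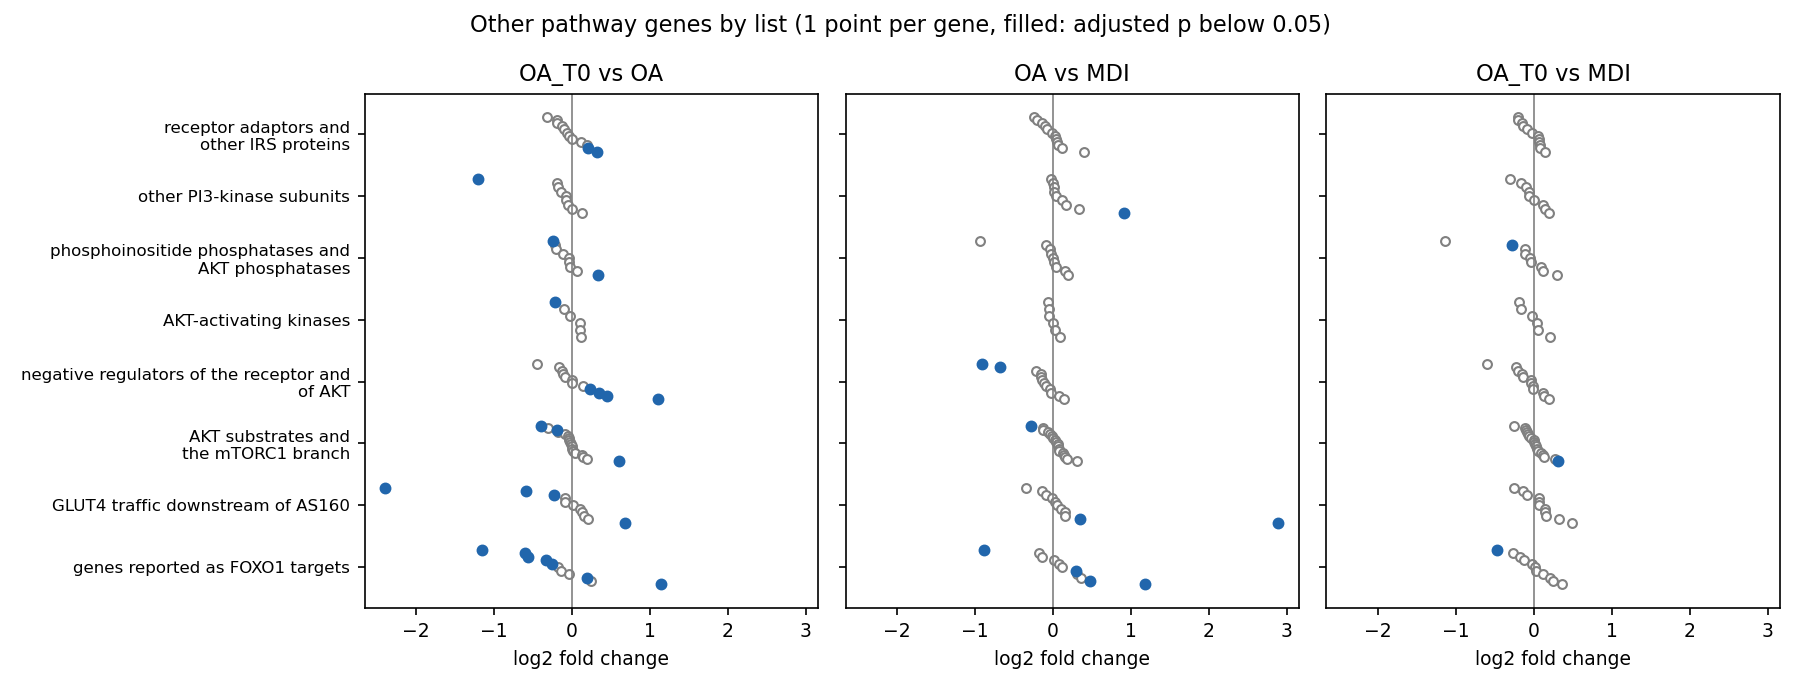
Log2 fold change of tested genes (points) of the 8 pathway lists, without those not reported here, in OA_T0 vs OA, OA vs MDI and OA_T0 vs MDI; filled points passed at an adjusted p below 0.05. Trarg1 lies farthest from 0, at -2.40 in OA_T0 vs OA and 2.89 in OA vs MDI.

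Receptor adaptors and other IRS proteins had 0 calls in OA vs MDI and OA_T0 vs MDI. In OA_T0 vs OA 2 of 12 rose and 0 fell (16.7% called, near the 15.1% of all tested genes). They were Dok1, a docking protein (923 ± 21.6 normalised counts in OA_T0 and 741 ± 70.8 in OA), and Sh2b3, an adaptor that dampens cytokine signals (2092 ± 25.9 in OA_T0 and 1821 ± 102 in OA). Both calls were lost without OA 1 or 2 or OA_T0 1, 2 or 3, and that of Dok1 also without MDI 2, with adjusted p up to 0.153 for Dok1 and 0.173 for Sh2b3. In the list of other PI3-kinase subunits and interacting proteins, 1 of 9 tested genes was called in OA_T0 vs OA and 1 in OA vs MDI. These made up 11.1% of the list in each, against 15.1% and 6.79% of all tested genes. Pik3r5, the regulatory subunit p101 of the gamma class, was the sole gene called. It measured 86.9, 88.5 and 111 in OA_T0, 235, 179.8 and 255 in OA, and 90.5, 119.7 and 148 in MDI, and OA stood above both other groups. Its log2 fold change was -1.21 in OA_T0 vs OA (adjusted p = 0.000519) and 0.91 in OA vs MDI (adjusted p = 0.00852, but 0.0504 without MDI 1). Pik3cg, the catalytic subunit gene of the gamma class, was not tested. It was listed at 0 in every library but MDI 2 (1.09), under the floor of 3 fragments.

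Among phosphatases of phosphoinositides and AKT, Phlpp1, an AKT phosphatase, averaged 806 ± 33.8 normalised counts in OA_T0, 952 ± 34.7 in OA and 980.0 ± 46.0 in MDI, and fell both against OA (-0.24) and against MDI (-0.28). The first call was lost without OA 1 or 3 or OA_T0 1 or 3 (adjusted p up to 0.130), and the second without any MDI library, OA 1 or OA_T0 1 or 3 (up to 0.206). Ppp2r5b, a PP2A subunit, rose in OA_T0 vs OA (515 ± 30.5 in OA_T0 and 409 ± 5.39 in OA), a call lost without OA 1 (0.0608). Among the kinase complexes that activate AKT, Rictor, the scaffold of mTORC2, fell in OA_T0 vs OA (1711 ± 93.3 in OA_T0 and 1995 ± 130 in OA), and lost its call without OA 1 or 2 or OA_T0 1 or 3 (up to 0.159).

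Among negative regulators, 4 of 12 rose and 0 fell in OA_T0 vs OA (8.27% and 6.84% of all tested genes), and 0 rose and 2 fell in OA vs MDI (3.43% and 3.36% of all). Trib3, a pseudokinase that binds AKT, averaged 3668 ± 633 normalised counts in OA_T0, 1698 ± 44.6 in OA and 3181 ± 50.6 in MDI, and rose in OA_T0 vs OA (log2 fold change 1.10) and fell in OA vs MDI (-0.91). Grb14, which blocks the kinase of the insulin receptor, measured 882, 778 and 795 in OA_T0, 636, 641 and 652 in OA, and 765, 756 and 714 in MDI, and rose in OA_T0 vs OA (log2 fold change 0.34, adjusted p = 0.00489). Socs2, a suppressor of growth hormone signals, averaged 513 ± 65.4 in OA_T0, 379.6 ± 68.0 in OA and 604 ± 82.9 in MDI. It rose in OA_T0 vs OA, a call lost without OA 1 or 3 or OA_T0 1 or 3 (up to 0.146), and fell in OA vs MDI, a call lost without MDI 1 (0.0526). Trib1 rose in OA_T0 vs OA (1591 ± 135 in OA_T0 and 1352 ± 40.8 in OA), a call lost without MDI 2, OA 1, 2 or 3 or OA_T0 1 or 2 (up to 0.118).

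Among 18 AKT substrates and genes of the mTORC1 branch, 1 rose and 2 fell in OA_T0 vs OA, 1 fell in OA vs MDI and 1 rose in OA_T0 vs MDI. Calls made up 16.7%, 5.56% and 5.56% of the list, against 15.1%, 6.79% and 2.61% of all tested genes. The shares in the first 2 comparisons were thus near the background. Eif4ebp1, a repressor of translation that mTORC1 switches off, carried 3 of these calls, at 4217 ± 436 normalised counts in OA_T0, 2788 ± 254 in OA and 3387 ± 49.6 in MDI. Its rise over OA had an adjusted p of at most 0.00184 without any 1 library. The call of its fall in OA vs MDI was lost without any MDI library, OA 1 or 2 or OA_T0 1 (up to 0.152), and that of its rise over MDI without any MDI library, OA 1 or OA_T0 1 or 3 (up to 0.249). Pde3b, the phosphodiesterase through which insulin restrains lipolysis (197 ± 12.8 in OA_T0 and 260.0 ± 37.1 in OA), and Rps6kb1, the S6 kinase (2645 ± 115 in OA_T0 and 3013 ± 116 in OA), fell in OA_T0 vs OA. Both calls were lost without MDI 2, OA 1 or 2 or OA_T0 1 or 3 (up to 0.171 and 0.132). Foxo1, the transcription factor that AKT keeps out of the nucleus, was not called (log2 fold changes -0.02, 0.08 and 0.05 in OA_T0 vs OA, OA vs MDI and OA_T0 vs MDI). Mdm2, an AKT substrate that restrains p53, was the gene with the 6th highest mean of the whole table, at 129598 ± 1087 in OA_T0, 126084 ± 5196 in OA and 138152 ± 2392 in MDI.

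Slc2a4, which encodes GLUT4, was listed at 0 in 7 of 9 libraries and at no more than 1.09 normalised counts in the others, under the floor of 3 fragments. Of 11 tested genes of GLUT4 traffic, 1 rose and 3 fell in OA_T0 vs OA, and 2 rose and 0 fell in OA vs MDI. Calls made up 36.4% and 18.2% of the list, against 15.1% and 6.79% of all tested genes. Lnpep, the aminopeptidase that travels in GLUT4 vesicles, measured 4031, 4504 and 3699 in OA_T0, 6250.1, 6584 and 5573 in OA, and 4743, 4693 and 5051 in MDI. It fell in OA_T0 vs OA (log2 fold change -0.59) and rose in OA vs MDI (0.34), the call of the rise being lost without MDI 1 or 2 or OA 1 or 2 (up to 0.0804). Trarg1, which acts in the same traffic, measured 16.6, 8.04 and 23.1 in OA_T0, 79.4, 72.5 and 93.3 in OA, and 10.8, 7.62 and 12.4 in MDI, and fell in OA_T0 vs OA (-2.40) and rose in OA vs MDI (2.89). In OA_T0 vs OA, Rab14 fell (5439 ± 511 in OA_T0 and 6390.0 ± 259 in OA), a call lost without OA 1 or 2 or OA_T0 1 or 3 (up to 0.113). Sort1, sortilin, rose (286 ± 82.7 in OA_T0 and 174 ± 8.93 in OA), a call lost without OA 1 or 2 or OA_T0 1 or 2 (up to 0.125).

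Of 11 genes reported as FOXO1 targets, 2 rose and 5 fell in OA_T0 vs OA (median log2 fold change -0.18; 8.27% and 6.84% of all tested genes rose and fell). Of the same 11, 3 rose and 1 fell in OA vs MDI (median 0.12; 3.43% and 3.36% of all), and 0 rose and 1 fell in OA_T0 vs MDI (median 0.01). Pdk4, a brake on glucose oxidation that PPAR receptors also induce, averaged 1917 ± 68.1 normalised counts in OA_T0, 4269 ± 108 in OA and 1884 ± 78.0 in MDI, and fell in OA_T0 vs OA (-1.16) and rose in OA vs MDI (1.18). Sesn3, a stress-induced sestrin, measured 3452, 4064 and 3706 in OA_T0, 5971, 5292 and 5318 in OA, and 4353, 4469 and 4621 in MDI, and was highest in OA. The call of its rise in OA vs MDI was lost without MDI 1 or 2 or OA 1 (up to 0.0860). Ccng2, a cyclin linked to arrest of the cell cycle, averaged 1259 ± 175 in OA_T0, 1899.6 ± 22.1 in OA and 1377 ± 188 in MDI, and the call of its rise in OA vs MDI was lost without MDI 1 or 2 (up to 0.0626). Gadd45a, a stress gene that ATF4 also induces, ran the other way, at 890.1 ± 176 in OA_T0, 401 ± 46.5 in OA and 741 ± 55.9 in MDI (log2 fold change 1.13 in OA_T0 vs OA and -0.89 in OA vs MDI). Txnip, an inhibitor of glucose uptake, averaged 9983 ± 649 in OA_T0, 12552 ± 226 in OA and 13795 ± 321 in MDI, and fell in OA_T0 against both.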

How the data were processed

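Poly(A), strand-specific RNA libraries from 9 samples of 3T3-L1 cells were used, 3 in each group. The signal the authors deposited for each gene is a normalised count, not a whole number, and scaling by 1 factor per library was assumed. Per the submitters' processing notes the tools included TopHat, CASAVA 1.8.2, DESeq2 and HTSeq, on mm9; their roles and the annotation are not given in the sources used here. Depth was estimated from the step on which low values pile up; between 5 and 50 steps, 63.1% to 68.8% of values were whole within 0.05 of a step, so whole reads were not recovered and no count test was run. Values were tested as log2(value + 1), a scale that understates changes of low genes, for the 15002 genes with a mean of at least 10, with limma 3.58.1 in R 4.3.3 (intensity trend, 1 spread for 3 groups, two-sided, Benjamini-Hochberg within each comparison, threshold 0.05). Ratios were tested with the exact permutation test in scipy 1.17.1, adjusted over 12 tests.

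The procedure was run on simulated data for OA vs MDI only, with changes larger than that of any called member. It thus does not show how well changes as small as those of the members are found. GENCODE M21 gave length, GC content (28037 of 28965 symbols) and overlaps; RefSeq gave the upstream windows. The members and lists were chosen with earlier results of these data known, Trib3, Trarg1 and Pdk4 among them, so no list gets a test. The text names all members, and up to 4 called genes per list and comparison with the smallest adjusted p. It also names the 3 genes most like each of 2 members. Foxo1, Mdm2, Slc2a4 and Pik3cg were added after their values were seen. Of the list symbols, Irs4 and Ahsg were not analysed here, and some others, which count in the totals over the lists, are not reported here. Alternatives were pseudocounts of 0.5 and 5, no filter or a filter at 50, quantile normalisation, equal totals, TMM, a fit of only the groups compared, a replicate block, robust variances, GC and length trends, and libraries left out.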

Additional observations from a re-analysis of the deposited data

How the results depend on the processing

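With no filter, 0 members were called lower in OA_T0 vs OA and 0 for OA vs MDI, and pathway list genes numbered 6 higher and 8 lower in OA_T0 vs OA, 2 and 2 in OA vs MDI, and 0 and 1 in OA_T0 vs MDI; more genes were tested (27045), and calls over all genes numbered 850 higher and 620 lower in OA_T0 vs OA, 233 and 234 in OA vs MDI, and 72 and 38 in OA_T0 vs MDI (1240 and 1026, 514 and 504, and 188 and 204 as reported). Without both OA replicate 1 and OA_T0 replicate 3, members lower numbered 0 in OA_T0 vs OA and 1 in OA vs MDI, and list genes 6 higher and 7 lower for OA_T0 vs OA, with 0 and 1 for OA_T0 vs MDI. Over all genes 524 were higher and 400 lower in OA_T0 vs OA and 384 and 407 in OA vs MDI under that setting. With GC and length trends removed, members lower in OA_T0 vs OA numbered 0, and over all genes 64.8% of calls there were higher, against 54.7% as reported (1817 and 1240 genes higher, 987 and 1026 lower); the cause was not tested. Quantile normalisation, equal totals and TMM left 0 list genes higher in OA_T0 vs MDI, and the fit of only the groups compared left 1 lower there. The numbers do not pair the libraries: deviations from group means correlated at -0.26 to 0.26 between libraries of the same number. With the replicate block 1 list gene was lower in OA_T0 vs MDI, the fall of Pik3cb in OA vs MDI was not called (adjusted p = 0.0578), and called genes in OA vs MDI numbered 433 higher and 417 lower (514 and 504 as reported).

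With 1 library left out, members higher and lower ranged from 1 to 3 and 0 to 2 in OA_T0 vs OA, from 0 to 0 and 0 to 3 in OA vs MDI, and were 0 in OA_T0 vs MDI. Over all genes the same fits called 580 to 1443 and 474 to 1239 in OA_T0 vs OA, 214 to 660 and 155 to 642 in OA vs MDI, and 66 to 283 and 45 to 247 in OA_T0 vs MDI. List genes higher and lower ranged from 4 to 12 and 8 to 16 in OA_T0 vs OA, 2 to 8 and 2 to 4 in OA vs MDI, and 0 to 2 and 1 to 4 in OA_T0 vs MDI. Uncalled log2 differences whose sign changed ranged as follows: Akt2 OA_T0 vs OA (-0.017 to 0.090), Insr OA vs MDI (-0.012 to 0.084), Irs2 OA vs MDI (-0.046 to 0.19), Akt1 OA vs MDI (-0.049 to 0.046), Igf1r OA_T0 vs MDI (-0.092 to 0.014), Irs1 OA_T0 vs MDI (-0.083 to 0.13), Irs2 OA_T0 vs MDI (-0.19 to 0.053), Tbc1d4 OA_T0 vs MDI (-0.033 to 0.022). Of the log2 ratios, these changed sign: Irs2/Irs1 in OA_T0 vs MDI (-0.23 to 0.12), Akt2/Akt1 in OA_T0 vs MDI (-0.027 to 0.024), Pik3r1/(Pik3ca+Pik3cb) in OA vs MDI (-0.036 to 0.064).

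No called member changed direction under any alternative. The uncalled values that changed sign were, with GC and length trends removed, Pik3ca (0.012) and Akt2 (-0.0078) in OA_T0 vs OA, Akt1 (-0.020) in OA vs MDI, and Igf1r (0.038), Pik3ca (0.089), Akt1 (-0.019) and Tbc1d4 (0.019) in OA_T0 vs MDI. With quantile normalisation they were Tbc1d4 (-0.0079) in OA_T0 vs OA, Akt1 (-0.026) in OA vs MDI and Irs1 (-0.013) in OA_T0 vs MDI; with equal totals Akt1 (-0.013) in OA vs MDI and Irs1 (-0.018) in OA_T0 vs MDI; with TMM Akt1 (-0.010) in OA vs MDI and Irs1 (-0.0032) in OA_T0 vs MDI. Without both libraries low in ribosomal RNA, Insr stood at -0.012 in OA vs MDI.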
